A study of Mus musculus with 6 samples.

Results

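The small proline-rich genes, named Sprr in the mouse, were followed in uterine RNA of pregnant mice near the end of gestation. Their signals come from 6 single-colour Illumina bead arrays, with 3 arrays at day 18.5 post coitum, shortly before birth, and 3 at day 15.5. The sample labels call the tissue uterus and the design calls it myometrium, its muscle wall, and neither gives a strain or a treatment. The design counts 18 biological replicates per day, 36 in all, and does not say how these relate to the 6 arrays analysed here. The members are the probes that the authors' comparison table names Sprr1a, Sprr1b, Sprr2a, Sprr2b, Sprr2d, Sprr2e, Sprr2f, Sprr2g, Sprr2i or Sprr3, which made 11 probes of 10 genes among 45281 probes in all, Sprr2a having 2. The family was picked with its difference between the days already known, so its own differences are described without p-values.

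Small proline-rich proteins are short proteins with repeats rich in proline, and with glutamine and lysine residues that transglutaminases join to other proteins. In the skin and other stratified epithelia they are built into the cornified envelope, the cross-linked shell beneath the membrane of the outermost cells. In the mouse uterus several Sprr2 genes are known to be induced by oestrogen in the luminal and glandular epithelium. Their genes stand side by side in the epidermal differentiation complex, between the envelope genes Lor and Ivl. A detected probe here has a detection p-value under 0.05 on that array, and log2 signals are background-corrected and quantile-normalised intensities. Depending on the array, 43.6% to 46.5% of probes passed this, and the dimmest of them had a log2 signal of 5.34 to 5.52. Every array lay on a single chip in which each day filled its own stretch, so the effect of chip position and that of the day cannot be told apart. Since the animals behind each array are not given, p-values for other genes measure the spread between arrays, which may be technical. In RNA of a whole tissue, fewer cells of a type and less RNA per cell cannot be told apart.

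Only a few of the Sprr genes gave a signal, and most of those that did were higher at day 18.5. A probe was kept for testing when it was detected on at least 3 of the 6 arrays, and 5 of the 11 member probes were kept: Sprr2d, Sprr2f, Sprr2g, Sprr1a and 1 probe of Sprr2a. In the limma fit over all 20701 kept probes, 4 of these 5 passed a Benjamini-Hochberg adjusted p of 0.05 as higher, where 11.6% of all kept probes did, and none passed as lower, where 13.2% did. The members' counts at an unadjusted p of 0.05 were the same, 4 and 0. Over the whole array 2401 probes were called higher and 2727 lower, and with median scaling in place of quantile normalisation 1698 and 4074, a share of higher calls of 29.4% against 46.8%. The log2 signals of the days did not overlap for the same number, 4 of the 5, with all 3 arrays of day 18.5 above day 15.5, a pattern found in 20.9% of all kept probes. Over all 11 member probes, kept or not, the median log2 change was 0.38, against 0.00 over all 45281 probes. The family was chosen on this comparison, so these shares describe it and support nothing further. The plot of the member probes by array shows both groups of probes, those well above the detection floor and those at or under it.

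**Figure D1:**
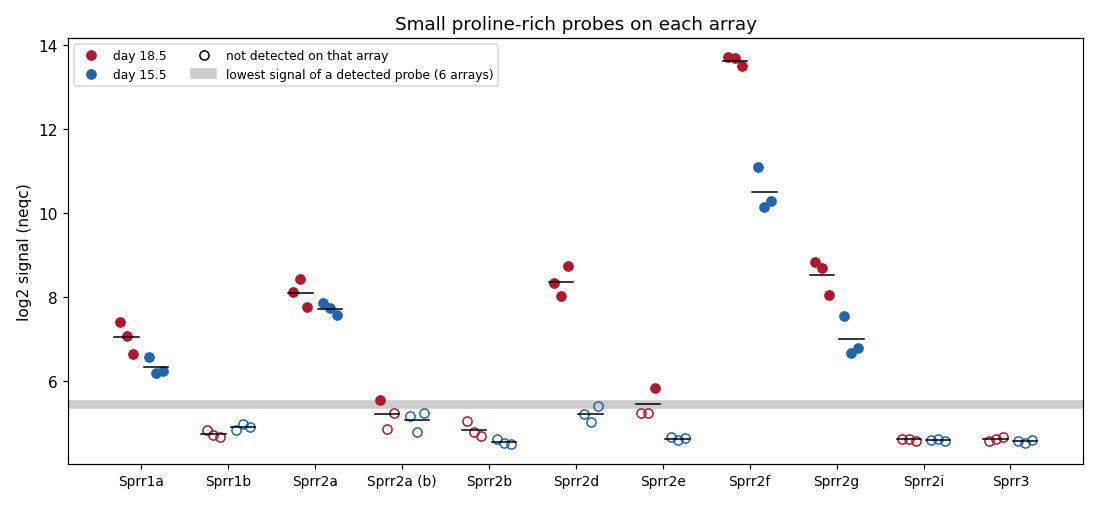
Log2 signal (vertical axis) of the 11 small proline-rich probes on each array, day 18.5 in red at the left of each pair and day 15.5 in blue, with a bar at each mean of 3 arrays. Filled points were detected on that array, open points were not, and the grey band spans 5.34 to 5.52, the lowest signals of detected probes on the 6 arrays; Sprr2f lies highest on both days, and Sprr2a (b) is the dimmer of 2 Sprr2a probes.

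Sprr2f, known as an oestrogen-induced gene of the mouse uterine epithelium, was among the members with the largest difference and was bright on every array. Its log2 signals were 13.71, 13.69 and 13.49 at day 18.5, against 11.09, 10.15 and 10.29 at day 15.5. All 3 later arrays lay above all 3 earlier ones, and replicate 1 of day 15.5 was the highest of its day. The change was 3.12 ± 0.23 on the log2 scale (SE), an 8.69-fold difference, which ranked 45 among the 20701 kept probes by size of rise. Each SE of a change is the moderated one of the limma fit, whose variance borrows from all kept probes. In unnormalised signal the arrays of day 18.5 read 13731, 12294 and 9162 units and those of day 15.5 read 2679, 1275 and 1359 units. The probe therefore had room below the brightest log2 signal on any array, 15.18. Across all alternatives in processing its log2 change stayed between 2.94 and 3.41.

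Sprr2d, another envelope precursor of the type 2 branch, was detected at day 18.5 alone. Its log2 signals were 8.34, 8.01 and 8.73 at day 18.5, with the probe detected on all 3 arrays, against 5.20, 5.01 and 5.41 at day 15.5, with the probe detected on none. Sprr2d passed the detection filter through its later arrays alone, and a probe that does so has to differ. Relative to the dimmest detected probes of the earlier arrays, taken as a floor, it was at least 7.5-fold higher, a bound which, like the others given for probes undetected on a day, holds for the background correction used. The measured means were 8.36 ± 0.36 at day 18.5 and 5.21 ± 0.20 at day 15.5 (log2, SD, n = 3 each), and since the second is not above background their difference of 3.15 is not an exact change. That difference ran from 2.07 without background correction to 3.91 with the authors' normalised values. The authors' deposited table gives ratios of day 18.5 over day 15.5 of 15 for Sprr2d and 8.79 for Sprr2f.

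Sprr2g is annotated in RefSeq as a transcribed pseudogene, and its probe was detected on every array. It had log2 signals of 8.83, 8.68 and 8.04 at day 18.5, against 7.54, 6.67 and 6.79 at day 15.5. The days did not overlap, and the lowest of the later arrays, replicate 3, stood nearest to the highest of the earlier ones, replicate 1. The change was 1.52 ± 0.26 (log2, SE), or 2.86-fold, with 1.19 to 1.79 over the alternatives.

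Sprr1a and Sprr2a differed less. Sprr1a, which belongs to the type 1 branch of the family and is also known as an injury-response gene in neurons and heart, had log2 signals of 7.41, 7.07 and 6.63 at day 18.5 and 6.56, 6.18 and 6.24 at day 15.5. Its days were separated only narrowly, with a change of 0.71 ± 0.20 (log2, SE), or 1.63-fold. The Sprr1a call did not hold with median scaling, without a detection filter, or without any 1 of replicates 2 and 3 of day 15.5 and replicates 1 and 2 of day 18.5; its log2 change over all alternatives was 0.46 to 0.91. The brighter Sprr2a probe had 8.11, 8.42 and 7.75 at day 18.5 and 7.85, 7.74 and 7.56 at day 15.5, so the days overlapped. Its change of 0.38 ± 0.18 (log2, SE) did not pass in the fit over all probes, but did without replicate 3 of day 18.5 (0.21 to 0.55 over all alternatives). The dimmer Sprr2a probe was detected on 1 array, replicate 1 of day 18.5, and its mean log2 signal was 5.20 at day 18.5 and 5.07 at day 15.5. RefSeq lists 3 copies, Sprr2a1, Sprr2a2 and Sprr2a3, so a probe named Sprr2a cannot be assigned to 1 of them.

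The other members stayed at or near background. Sprr2e had log2 signals of 5.24, 5.23 and 5.84 at day 18.5, where only replicate 3 was detected, against 4.65, 4.59 and 4.63 at day 15.5, where no array was. Its days did not overlap, but its later mean of 5.44 did not exceed the detection floor of the earlier arrays, so no fold is given; the fit without a detection filter called it higher. Sprr2b, undetected on every array, had 5.04, 4.78 and 4.68 at day 18.5 and 4.61, 4.52 and 4.49 at day 15.5, again without overlap. Sprr1b, Sprr2i and Sprr3, undetected throughout, had overlapping days, with log2 signals of 4.52 to 4.97. The Sprr genes of the array outside the member list, Sprr2h, Sprr2j, Sprr2k and Sprr4, were measured by 5 probes, all undetected on every array, with log2 signals of 4.42 to 4.77. These probes cannot tell a silent gene from one below the floor.

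The arrays within a day did not rank the members in a single way. Replicate 3 of day 18.5 gave the lowest later value of Sprr2f, Sprr2g, Sprr1a and the brighter Sprr2a probe, and the highest later value of Sprr2d and Sprr2e. On both days replicate 1 gave the highest value of Sprr2f, Sprr2g and Sprr1a. With 3 arrays per day these are single observations, and they were not tested. The Sprr2 genes are close relatives, so a probe may also read other copies. How far each probe does so was not examined, because probe sequences were not used here.

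The members with the largest differences were neighbours on the chromosome. In the RefSeq order of mouse chromosome 3 the cluster runs Sprr2a1, Sprr2a2, Sprr2a3, Sprr2b, the pseudogene Sprr2c-ps, Sprr2d, Sprr2e, Sprr2f, Sprr2g, Sprr2h, Sprr2i, Sprr2j-ps, Sprr2k, Sprr1b, Sprr3, Sprr1a and Sprr4. Sprr2d, Sprr2f and Sprr2g, called higher, stand close together, with Sprr2e, detected on 1 array, between the first and the second, whereas the next ones, Sprr2h, Sprr2i, Sprr2j and Sprr2k, were undetected on every array. Beyond the family, 42 further RefSeq genes lie inside the cluster or within 500 kb of it, among them the late cornified envelope (Lce) genes, and 25 of these had a probe. Only 2 of the 25 were kept and neither passed the test in limma, adjusted or at an unadjusted p of 0.05, while 21 were undetected on every array. Loricrin, Lor, the main envelope protein of the epidermis, averaged 6.28 ± 0.09 (SD, n = 3) at day 18.5 and 6.38 ± 0.94 (n = 3) at day 15.5 (limma adjusted p = 0.887). Lce1c, a late cornified envelope gene, changed by 0.32 ± 0.16 (log2, SE; limma adjusted p = 0.173). Among all genes tested, by the brightest kept probe of each, 1801 of 14751 (12.2%) were called higher and 1919 lower, together 25.2%.

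**Figure D2:**
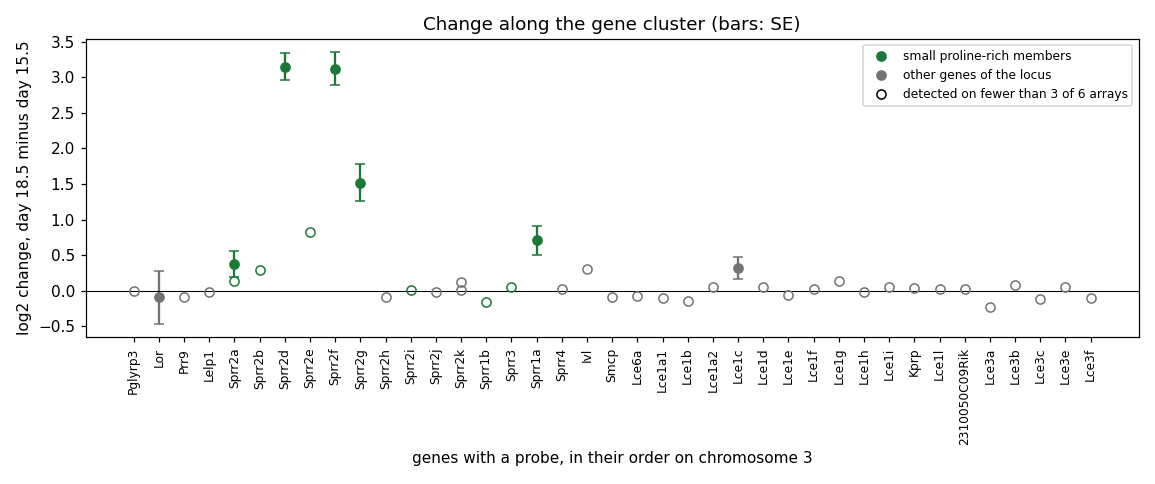
Log2 change, day 18.5 minus day 15.5 (vertical axis), of every Sprr probe and of the neighbouring genes, in gene order along mouse chromosome 3 and not to scale. Each neighbour is shown by its brightest kept probe or, if none was kept, by its brightest. Bars, drawn for kept probes, are the moderated SE of the limma fit. Green marks the members and grey the other genes, and open points were detected on fewer than 3 of the 6 arrays; Sprr2d, Sprr2f and Sprr2g stand at 3.15, 3.12 and 1.52, and the late cornified envelope genes (Lce) lie near 0. Sprr2d was undetected at day 15.5, so its point is measured against background.

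The promoter sequences of the family were compared, because genes with unlike signals here are near relatives. RefSeq promoter windows of 300 bases (250 before and 50 after the annotated start, build GRCm38.p6) were matched for 14 Sprr genes, 11 of which are members or copies of Sprr2a, and none was matched for Sprr2g. The authors' files name no genome build, so the positions are those of RefSeq alone. The 210 bases before the start are shown for Sprr2d and Sprr2f, which had the largest differences, for Sprr2e, detected on 1 array, for Sprr2i, detected on none, and for Sprr1a, a member of the type 1 branch. Capitals mark matches to the motifs of AP-1 (TGANTCA), of octamer-binding factors (ATGCAAAT, which appears here on the other strand as ATTTGCAT) and of the TATA box (TATAAA). The windows lie at chr3:92338930-92339139 (plus strand) for Sprr2d, chr3:92364977-92365186 (plus) for Sprr2f, chr3:92351933-92352142 (plus) for Sprr2e, chr3:92407781-92407990 (plus) for Sprr2i and chr3:92485882-92486091 (minus) for Sprr1a.
Sprr2d: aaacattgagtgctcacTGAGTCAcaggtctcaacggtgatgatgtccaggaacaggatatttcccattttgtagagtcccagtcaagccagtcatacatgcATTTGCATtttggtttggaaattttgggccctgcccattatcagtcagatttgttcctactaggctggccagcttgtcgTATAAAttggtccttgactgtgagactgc
Sprr2f: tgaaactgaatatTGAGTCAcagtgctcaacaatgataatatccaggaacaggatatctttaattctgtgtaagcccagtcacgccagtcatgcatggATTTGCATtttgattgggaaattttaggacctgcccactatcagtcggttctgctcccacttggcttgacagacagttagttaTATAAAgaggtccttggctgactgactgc
Sprr2e: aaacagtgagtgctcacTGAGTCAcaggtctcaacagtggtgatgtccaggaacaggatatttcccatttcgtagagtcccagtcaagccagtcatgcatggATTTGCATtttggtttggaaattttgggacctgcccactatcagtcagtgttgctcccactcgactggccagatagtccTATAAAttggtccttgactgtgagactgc
Sprr2i: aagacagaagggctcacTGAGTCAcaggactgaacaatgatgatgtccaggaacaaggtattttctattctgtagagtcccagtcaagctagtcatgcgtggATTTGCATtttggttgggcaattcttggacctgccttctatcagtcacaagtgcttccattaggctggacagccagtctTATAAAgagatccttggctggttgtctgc
Sprr1a: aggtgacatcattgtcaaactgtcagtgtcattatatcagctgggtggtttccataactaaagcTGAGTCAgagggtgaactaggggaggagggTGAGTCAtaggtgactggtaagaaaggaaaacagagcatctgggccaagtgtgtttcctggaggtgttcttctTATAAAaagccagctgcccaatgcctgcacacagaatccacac

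From Sprr2b to Sprr2k, promoters of genes with and without a detected probe shared 3 motifs at similar distances. All 7 Sprr2 windows from Sprr2b to Sprr2k held an AP-1 match, an octamer match and a TATA box, where 7.81%, 1.74% and 13.6% of 32851 promoter windows of the same length held each motif on either strand. These 7 windows belong to related genes and resemble each other, so they are not separate observations. The motifs were also chosen after the member values were seen. The TATA box began 29 bases before the start in all 7, the octamer 108 to 112 bases and the outer AP-1 match 193 to 198 bases before it. Sprr2k, undetected throughout, held a second AP-1 match at 182 bases and an ETS match at 94 bases, which the other windows of this run lacked. Sprr2d and Sprr2e, which differed in detection, were 88.7% identical over the window, and Sprr2i, undetected throughout, was 77.7% identical to Sprr2d. Identity among the 7 ran from 59.4% to 88.7%, and between them and the other Sprr windows from 45.3% to 52.0%. Sprr1a held 2 AP-1 matches, 146 and 116 bases before the start, and no octamer. No window of the 14 held the full palindromic oestrogen response element, found in 0.07% of all windows, and the ETS motif AGGAAGT, held by 9.35% of all windows, was found in those of Sprr2k and Sprr3. The windows of Sprr2a1, Sprr2a2 and Sprr2a3 held none of the 5 motifs. A match is a description of letters and not a binding site, and a missing match says nothing of a factor.

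**Figure D3:**
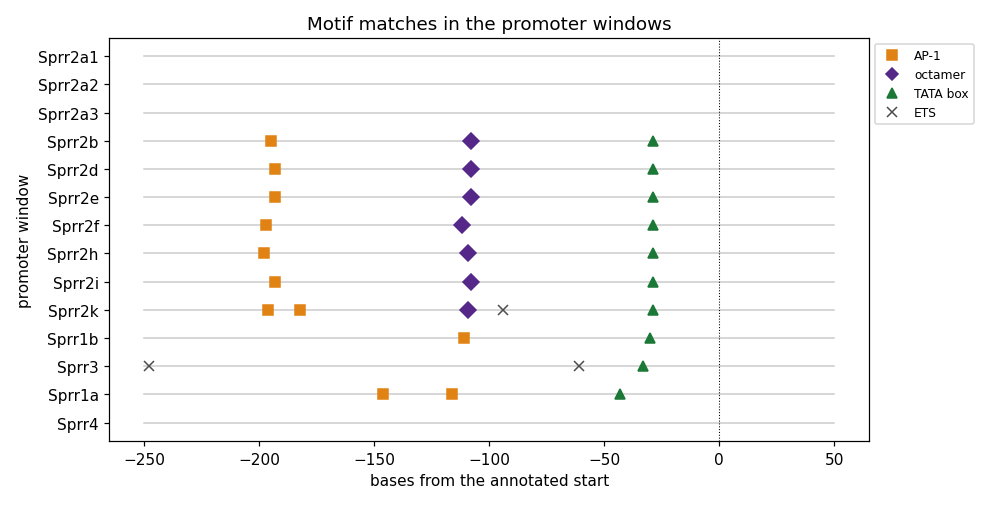
Position of the first base of each motif match (horizontal axis, bases from the annotated start, with the window from 250 before to 50 after it) in the RefSeq promoter windows of 14 Sprr genes. The TATA box, octamer and AP-1 matches line up in the 7 windows from Sprr2b to Sprr2k, which include genes with a detected probe (Sprr2d, Sprr2f) and genes without (Sprr2h, Sprr2i, Sprr2k).

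Genes listed for the cornified envelope went both ways. Over all genes tested, 12.2% were called higher and 25.2% in either direction. A probe undetected on every array of day 15.5 enters the test through its later arrays alone, as Sprr2d did, so such genes are named or counted beside each list, and each of them also passed as higher in the fit without a detection filter. Of 35 other envelope precursors on the array only 10 were measured, and of these 3 rose, 3 fell and 4 did not pass, with a median log2 change of 0.22, against 0.02 over all genes tested. Envoplakin, Evpl, a plakin of the envelope's scaffold, rose 5.47-fold (limma adjusted p = 1.78e-05), and sciellin, Scel, undetected at day 15.5, was at least 1.86-fold higher (limma adjusted p = 0.000122, and 0.00123 without the filter). Periplakin, Ppl, the partner of envoplakin, fell by 1.67 on the log2 scale (limma adjusted p = 0.000159), with changes of -1.58 and -0.69 at its other kept probes. Krtdap, counted in this list although it is a secreted protein of differentiating keratinocytes, fell by 2.54 (limma adjusted p = 1.61e-05), with a change of -1.0 at its other kept probe. Involucrin, Ivl, and filaggrin, Flg, were among 22 precursors undetected on every array. Of the transglutaminases, which cross-link the envelope, 4 of 8 on the array were measured, 1 rose, 1 fell and 2 did not pass (median 0.07). Tgm5, the one that rose, was undetected at day 15.5 and at least 1.56-fold higher at day 18.5 (limma adjusted p = 0.000781, and 0.00413 without the filter), and F13a1, the clotting factor XIII A chain, fell by 0.90 (limma adjusted p = 0.000889). Tgm2, the tissue transglutaminase, changed by 0.33 ± 0.12 (log2, SE; limma adjusted p = 0.0831, and 0.0346 to 0.240 over the alternatives), and its other kept probe by -0.11. Tgm1, the keratinocyte enzyme, changed by -0.19 ± 0.14 (limma adjusted p = 0.354).

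Of 16 measured transcription factors known to act on SPRR promoters in keratinocytes or other epithelia, 4 rose, none fell and 12 did not pass (median 0.24). At an unadjusted limma p of 0.05, 7 were higher and 1 lower. Over all genes tested, 12.2% were called higher and 25.2% in either direction, the background for this list and the oestrogen-responsive one below. Elf3, an epithelial ETS factor, rose 4.39-fold (limma adjusted p = 5.61e-05) and Esr1, the oestrogen receptor, 1.45-fold (limma adjusted p = 0.00985), though its other kept probe, with a change of 0.21, did not pass. Klf4 (0.43 ± 0.12, log2, SE, limma adjusted p = 0.0252) and Irf1 (0.46 ± 0.13, limma adjusted p = 0.0250) were also called. These calls did not hold under median scaling, the replicate block or the loss of any 1 of 5 arrays each. Their limma adjusted p ran from 0.00871 to 0.114 for Klf4 and from 0.00744 to 0.0762 for Irf1. The other kept Klf4 probes, with changes of 0.55 and 0.43, were called, whereas 3 of the 4 other Irf1 probes were not. None of the 7 measured AP-1 subunits and relatives (Fos, Fosb, Fosl2, Jun, Junb, Jund and Atf3) passed in limma, and Fos and Junb did at an unadjusted p of 0.05. Fos, named after its values were seen, changed by 0.97 ± 0.36 (log2, SE; limma adjusted p = 0.0792), and leaving out 1 array moved this between 0.54 without replicate 1 of day 15.5 (limma adjusted p = 0.182) and 1.43 without replicate 2 of day 15.5 (limma adjusted p = 0.00627). Of 14 measured oestrogen-responsive genes of the uterus, 7 rose, 2 fell and 5 did not pass (median 0.49). The Wnt ligand Wnt7a, undetected at day 15.5, was at least 5.67-fold higher (limma adjusted p = 8.37e-06, and 0.000415 without the filter) and Wnt4 rose 3.17-fold (limma adjusted p = 3.73e-05), both Wnt genes acting in uterine development. Aqp8, a water channel, fell by 4.11 on the log2 scale (limma adjusted p = 3.88e-06). A second water channel, Aqp5, fell by 2.99 (limma adjusted p = 2.15e-05).

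Most of the measured epithelial markers were called higher at day 18.5, the direction of the called Sprr genes. The marker lists, like the lists above, were chosen with earlier results of these data known, so their counts are a description. Over all genes tested, 12.2% were called higher and 25.2% in either direction. In simple uterine epithelium, 9 of 12 measured markers rose and 3 did not pass (median 1.03). The lists are not separate, since this one shares Elf3 with the promoter factors and Muc1 with the oestrogen-responsive genes. Lor and Ivl stand in the envelope, neighbour and stratified lists. Of the 9, Krt18 (limma adjusted p = 0.0489, up to 0.144 over the alternatives) and Esrp1 (in the file as Rbm35a; 0.0403, up to 0.121) lost the call under several alternatives and left-out arrays; both are named here after their values were seen. The summed linear signal of the 15 markers on the array ran from 43116 to 50308 at day 18.5 and from 16223 to 25465 at day 15.5. The tight junction gene Cldn4 rose 6.51-fold (limma adjusted p = 9.85e-06), and the keratins Krt8 and Krt7 rose 2.17-fold and 2.14-fold (limma adjusted p = 0.00104 and 0.00383). Epcam (in the file as Tacstd1), Ehf and Foxa2 were undetected on every array. Markers of stratified squamous epithelium, as in the cervix, vagina and skin, rose in 7 of 10 measured cases and 3 did not pass (median 1.28), and 1 of the 7, Krt16, was undetected at day 15.5. Their summed signal, over 19 on the array, ran from 11650 to 14678 at day 18.5 and from 2544 to 3982 at day 15.5. Krt6b, a keratin of activated epithelium, averaged 8.55 ± 0.11 at day 18.5 and 5.27 ± 0.31 at day 15.5 (log2, SD, n = 3 each; limma adjusted p = 4.07e-06). Only 1 of its day 15.5 arrays was detected, so no exact fold is given; the difference of the means ran from 2.21 to 3.96 over the alternatives, and its other kept probe changed by 2.27. Krt14, a basal cell keratin, had log2 signals of 13.24, 12.71 and 12.77 at day 18.5, against 10.41, 10.38 and 8.75 at day 15.5 (limma adjusted p = 0.000505), and Krt17 rose 2.48-fold (limma adjusted p = 0.000787). Krt1, Ivl, Dsg1a, Dsg3, Dsc1 and Dsc3, further markers of this stratified list, were undetected on every array. The part of epithelial content in the Sprr differences was not tested.

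**Figure D4:**
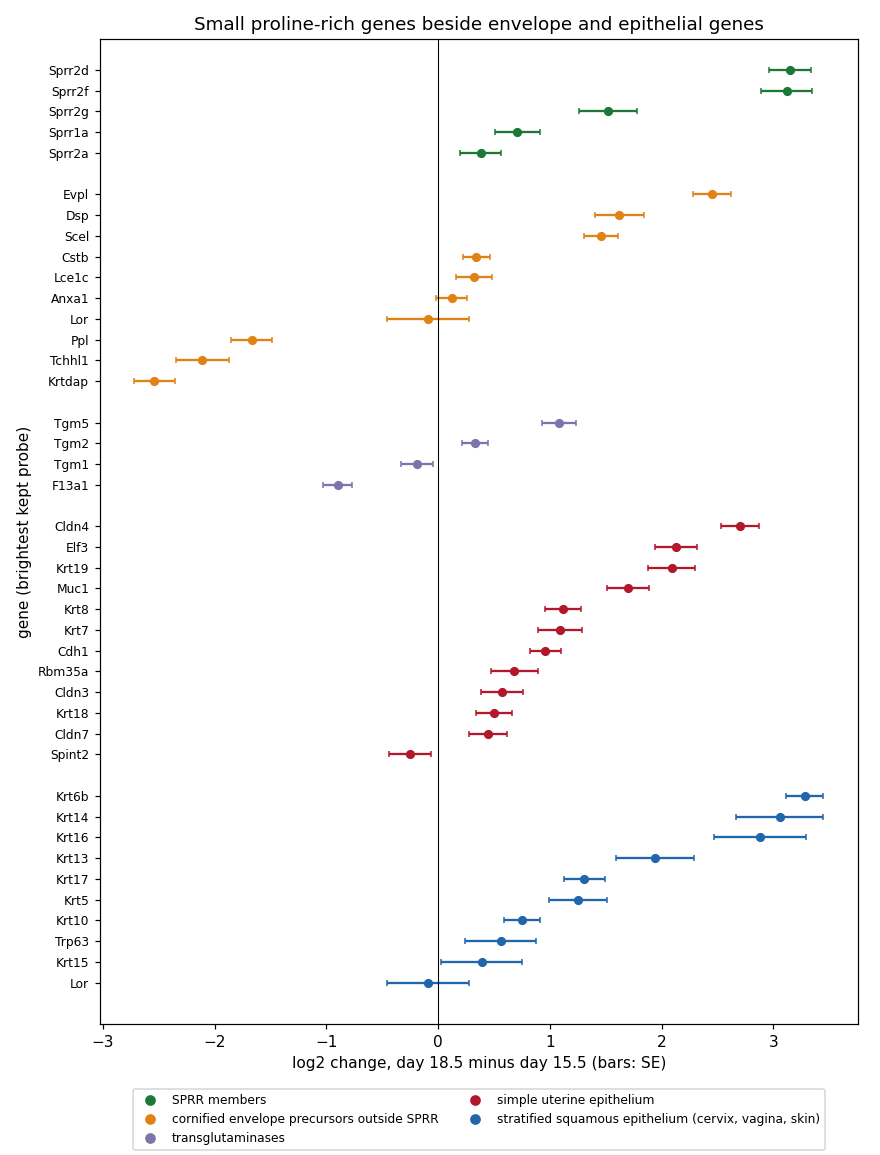
Log2 change, day 18.5 minus day 15.5 (horizontal axis), of the kept Sprr probes and of the measured genes of other lists (vertical axis). The lists are envelope precursors, transglutaminases, simple epithelial and squamous epithelial markers, each gene by its brightest kept probe (Rbm35a is Esrp1). Bars are the moderated SE of the limma fit. Genes of the envelope list lie on both sides of 0, from Evpl at 2.45 to Krtdap, a secreted protein, at -2.54. Of the epithelial markers, 9 of 12 simple and 7 of 10 squamous ones passed as higher. Sprr2d, Scel, Tgm5 and Krt16 were undetected at day 15.5, so their points are measured against background.

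Markers of the other cell types were mixed, where 12.2% of all genes tested were called higher and 25.2% in either direction. The smooth muscle genes, markers of the myometrium that the design names, were all detected, and 4 of 10 fell and 6 did not pass (median -0.21). Lmod1, 1 of the 4, lost its call with the replicate block and without any single array. The summed signal of the smooth muscle genes ran from 111329 to 119580 at day 18.5 and from 108130 to 121422 at day 15.5. The brightest of them, Acta2 and Actg2, changed by 0.07 and 0.22 (limma adjusted p = 0.728 and 0.220), but 3 of 4 other Acta2 probes were called, all 4 with changes between -0.71 and -0.42, while Myocd fell by 2.38 (limma adjusted p = 3.88e-06; -0.87 to -2.30 at its other probes) and Smtn fell by 0.52 (limma adjusted p = 0.00798). Trophoblast markers rose in 7 of 8 measured cases, 5 of which were undetected on every array of day 15.5 and count as measured through day 18.5 alone, with summed signals of 15367, 24533 and 6998 at day 18.5, against 612, 526 and 435 at day 15.5. Prlpn, now Prl7b1, undetected at day 15.5, was at least 95.4-fold higher (limma adjusted p = 4.07e-06). Prl2c2 averaged 11.49 ± 0.89 at day 18.5 and 5.33 ± 0.44 at day 15.5 (log2, SD, n = 3 each; limma adjusted p = 9.96e-06), and Prl2c3, a near relative, 11.39 ± 0.95 and 5.21 ± 0.25 on the same days (limma adjusted p = 9.23e-06). They were detected on 2 and 1 of the 3 arrays of day 15.5, with means at or under the floor, so no exact fold is given. Yolk sac markers had 2 higher, 2 lower and 2 not past the test of 6 measured, and both that were higher, Afp and Apoa1, were undetected on every array of day 15.5. Apoa1 had 8.58, 10.62 and 11.76 at day 18.5, against 5.16, 4.95 and 4.89 at day 15.5 (limma adjusted p = 0.000293). Its difference of means, 5.32, was 4.6 without replicate 3 of day 18.5, 6.19 without replicate 1 of day 18.5 and 4.02 without background correction, so no fold is given. Among the other yolk sac markers Rbp4 fell by 1.31 (limma adjusted p = 0.000728), Amn by 1.13 (limma adjusted p = 0.0293, up to 0.112 over the alternatives) and Trf changed by 0.73 (limma adjusted p = 0.0682, and 0.0107 without replicate 1 of day 18.5). Replicate 3 of day 18.5, which was lowest for Sprr2f and highest for Sprr2d, had the lowest later trophoblast sum and the highest later sum of simple epithelium (50308), smooth muscle (119580) and yolk sac (8413). Of 9 macrophage and neutrophil genes 2 rose, 1 fell and 6 did not pass (S100a9, 1 of the 2, lost its call under several alternatives), with Cd14 2.90-fold higher (limma adjusted p = 6.8e-05), Mrc1 at a log2 change of -0.71 (limma adjusted p = 0.0023) and Lyz2 changed by 0.08 (limma adjusted p = 0.728). The part of these cell types in the Sprr differences was not tested.

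The genes whose 6 log2 values, each centred on its own mean, lay nearest to the mean profile of the 5 kept Sprr probes were Ppp1r1b, Ghrh, Tjp3, 2010107G12Rik (now Slc23a4) and Dclk3. Their root mean square differences from that profile were 0.109, 0.111, 0.135, 0.138 and 0.140 on the log2 scale over the 6 arrays. Tjp3, which encodes a scaffold protein of tight junctions, had 8.84, 8.71 and 8.60 at day 18.5, against 7.31, 6.57 and 6.55 at day 15.5. Ppp1r1b, a regulator of protein phosphatase 1, was undetected at day 15.5 and had 6.75, 6.78 and 6.61 at day 18.5. Ghrh, the gene of growth hormone-releasing hormone, had 7.48, 7.11 and 6.98 at day 18.5 and 5.82, 5.42 and 5.42 at day 15.5, where 2 arrays were detected. The mean profile averages members whose log2 changes ran from 0.38 (Sprr2a) to 3.15 (Sprr2d). A gene near it need not resemble any single member. With 6 arrays in 2 groups the likeness includes the difference between the days for which the family was chosen, and it is given as a description.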

How the data were processed

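RNA of 3 arrays of day 18.5 and 3 of day 15.5 was compared, grouped by sample title. Per the file headers, the deposited unnormalised table lists per probe the average intensity of its beads and a p-value of detection, and the authors' comparison table holds their normalised intensity, a ratio and a false discovery rate. The authors' normalised intensities share 1 distribution across arrays; how they corrected the background is not stated in the labels. Ratios in that table are sorted apart from the probes and were joined by symbol and by the ratio of geometric means of the normalised intensities, within a relative tolerance of 1e-05. The count of columns of values without a sample was 0.

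Intensities were background-corrected from detection p-values, offset by 16, quantile-normalised and log2-transformed by the neqc function (limma 3.58.1, R 4.3.3). Probes detected at p under 0.05 on at least 3 of 6 arrays were kept (20701) and compared with lmFit and eBayes, two-sided, with Benjamini-Hochberg adjustment over all of them; the fit was tested on simulated data. A gene outside the family is represented by its brightest kept probe, found by symbol or RefSeq synonym. Promoters were aligned globally with Biopython 1.88. The precision of array values is limited by the number of arrays.

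Members and lists were chosen with earlier results of these data known, and the motifs after the member values were seen. Named are all Sprr genes, the 4 smallest adjusted p in each related list, the 2 brightest and the 2 smallest adjusted p in each marker list, and the 5 genes of nearest profile. Alternatives were no background correction, an offset of 50, median scaling, the authors' values floored at 16, no detection filter, detection p under 0.01 on all 6 arrays, 1 probe per gene, the replicate number as a block and each array left out.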

Additional observations from a re-analysis of the deposited data

How the results depend on the processing

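Sprr2f and Sprr2g were called higher in the main setting and all 14 alternatives, and Sprr2d in all but the strict detection filter, which removed it. The family was chosen on this comparison and the refits share the same arrays, so these repeated calls describe it and support nothing further. Wherever the main detection filter was used, Sprr2d entered through its later arrays alone. Between 3 and 5 member probes passed, 4 with the replicate block, and none was lower. Leaving out 1 array each gave 3 to 5 member probes, 1742 to 2221 probes called higher over the array and 2027 to 2495 called lower, and 13 to 14 related genes called higher. Median scaling moved the median of all kept probes from 0.01 to -0.11 on the log2 scale and the split of calls to 1698 higher and 4074 lower, against 2401 and 2727. With the replicate block 2097 probes were higher, 2424 lower and 13 related genes higher, against 15 without it. Same-numbered arrays of the days had correlations of deviations of -0.165, 0.138 and -0.071, so the numbers were not taken to pair samples. Of 154 values of member probes under alternatives, 11 moved by more than 1 SD between arrays and none of the called members changed sign. The values are mean differences, so the detection filters, 1 probe per gene and the replicate block could not move them. Of the calls of other genes under alternatives, 51 were lost and 24 gained, and none reversed. Signals near the detection floor limit Sprr2b, Sprr2e, Sprr2i, Sprr1b and Sprr3.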
